A study of Mus musculus with 8 samples.

Results

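Small nucleolar RNAs (snoRNAs) and small Cajal body RNAs were followed in long-term haematopoietic stem cells of mouse bone marrow. Members were the gene symbols that begin with Snora, Snord or Scarna and a number, with a total count of at least 10 over 8 libraries. Of the 24421 symbols in the count table, 119 had such a name and 104 were members. By name, 64 were box C/D snoRNAs (Snord), 31 were H/ACA snoRNAs (Snora) and 9 were Cajal body RNAs (Scarna). Of the other symbols, 13 had no count in any library, and Snora36b and Snord123 lay just outside the minimum with totals of 9 and 5. Snord64 and Snord38a lay just inside it with totals of 17 and 18. The minimum count required for testing was passed by 96 members, namely 58 box C/D, 31 H/ACA and 7 Cajal body RNAs.

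Box C/D snoRNAs bind fibrillarin (Fbl), Nop56, Nop58 and Snu13 and guide 2'-O-methylation of ribosomal RNA, while H/ACA snoRNAs bind dyskerin (Dkc1), Gar1, Nhp2 and Nop10 and guide pseudouridylation. Cajal body RNAs carry the same boxes and guide modification of the spliceosomal RNAs. In mammals most of these RNAs are cut out of introns of host genes, many of which encode ribosomal proteins or translation factors, and they carry no poly(A) tail.

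The cells were lineage-negative, CD117+, Sca1+, CD150 high and CD48 low, and were sorted by a Vwf-GFP reporter into a Vwf+ fraction, described by the submitters as biased to the megakaryocyte lineage, and a Vwf- fraction. Each fraction came from wild-type (WT) and from Dnmt3a+/- mice, heterozygous for a DNA methyltransferase gene, at 10 to 12 months of age, so there were 4 groups with 2 libraries each. The first replicate of each group came from males and the second from females (called replicate 1 and replicate 2 here), and each library was made from a pool of 3 to 4 mice, so single mice were not resolved. Total RNA was converted with a kit for very small inputs, and the deposited tables held counts and TPM (a length-normalised level). The allele's construction and whether Vwf+ and Vwf- cells came from the same mice are not given in the sources used here.

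Total counts ran from 21809278 to 39402418 per library. Vwf stood at 1034 to 1409 CPM (counts scaled to library size, with TMM factors) in the 4 Vwf+ libraries and at 98.9 to 116 in the 4 Vwf- libraries. Dnmt3a itself stood at 175 to 251 CPM in WT and 179 to 361 in Dnmt3a+/- libraries, so its level over the whole gene did not separate the genotypes. All 12 stem cell markers on the list, such as Procr, Hlf and Mecom, were tested, and their summed level ran from 2593 to 3322 CPM. Among lists for other cells, the summed level of 5 T and NK cell genes was 80.9 CPM in Vwf+ WT replicate 2, 30.5 to 41.3 in the other Vwf+ libraries and 3.63 to 6.23 in Vwf- libraries. Nearly all of that was Klrb1c, and Cd3e did not pass 0.447 CPM in any library. Summed neutrophil genes ran from 15.6 to 121 CPM, summed erythroid genes from 16.8 to 39.2 CPM and summed B cell genes from 11 to 18.2 CPM, and none of these was highest in Vwf+ WT replicate 2. The part of Klrb1c-expressing cells in the values below was not tested. In bulk libraries, fewer cells of a type and less RNA per cell cannot be told apart.

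The members took 0.0831% to 0.18% of the counts in 7 libraries and 0.396% in Vwf+ WT replicate 2. That library stood apart from the other 7 for most H/ACA and for the long box C/D snoRNAs. Results that rest on it are therefore given with and without it.

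The sequences that follow are those on which the description turns: long and short members from the same or different hosts. They come from the transcript set of GENCODE M21 (assembly GRCm38, equal to mm10) and are written 5' to 3' on the sense strand. Capitals mark box C (TGATGA, within the first 20 bases) and box D (CTGA, within the last 20 bases) of box C/D RNAs, and ACA placed 3 bases before the 3' end of H/ACA RNAs. Snord17 lies in an intron of Snx5 at chr2:144265979-144266216 (minus strand). Snord15b, from Rps3, lies at chr7:99479563-99479707 (minus strand) and overlaps an exon of a host transcript. Snora81 and Snord2 come from the translation factor gene Eif4a2, at chr16:23110756-23110933 (plus strand) and chr16:23108953-23109021 (plus strand), and both overlap an exon of some host transcript. Snora21 lies in an intron of Rpl23 at chr11:97781639-97781775 (minus strand). Snora64 overlaps an exon of a transcript of Rps2 at chr17:24720772-24720905 (plus strand). Snora31 lies in an intron of Tpt1 at chr14:75847905-75848034 (plus strand). Snord96a overlaps an exon of a transcript of Rack1 at chr11:48802032-48802112 (plus strand).
Snord17: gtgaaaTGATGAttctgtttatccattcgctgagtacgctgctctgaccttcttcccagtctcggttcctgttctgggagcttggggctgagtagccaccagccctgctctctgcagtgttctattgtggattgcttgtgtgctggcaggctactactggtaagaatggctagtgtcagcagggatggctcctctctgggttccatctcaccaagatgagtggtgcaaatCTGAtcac
Snord15b: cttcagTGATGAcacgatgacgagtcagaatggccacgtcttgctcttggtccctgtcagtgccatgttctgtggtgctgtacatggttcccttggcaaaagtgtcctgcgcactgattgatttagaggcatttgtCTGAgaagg
Snord2: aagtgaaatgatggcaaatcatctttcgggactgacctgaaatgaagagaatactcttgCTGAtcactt
Snord96a: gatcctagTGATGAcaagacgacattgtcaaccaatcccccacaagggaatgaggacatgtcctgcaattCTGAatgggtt
Snora81: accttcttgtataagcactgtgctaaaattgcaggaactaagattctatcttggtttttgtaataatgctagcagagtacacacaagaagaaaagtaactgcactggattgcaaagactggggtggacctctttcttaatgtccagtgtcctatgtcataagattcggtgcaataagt
Snora21: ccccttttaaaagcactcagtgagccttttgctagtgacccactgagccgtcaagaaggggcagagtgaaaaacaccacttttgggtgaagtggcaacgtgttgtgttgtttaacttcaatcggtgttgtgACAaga
Snora64: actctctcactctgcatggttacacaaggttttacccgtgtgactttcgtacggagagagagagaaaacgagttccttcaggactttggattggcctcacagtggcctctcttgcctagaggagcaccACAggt
Snora31: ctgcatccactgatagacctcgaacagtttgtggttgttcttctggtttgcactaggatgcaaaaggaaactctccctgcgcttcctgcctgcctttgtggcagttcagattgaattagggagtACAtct

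The letters went with the snoRNA classes, which are defined by these boxes. The counts below therefore describe the annotation and are no result of these libraries. CTGA was found in the last 20 bases of 61 of 63 box C/D members with a transcript sequence, of 4 of 31 H/ACA members and of 9.93% of 32817 RefSeq promoter windows (last 20 bases). TGATGA was found in the first 20 bases of 38 of the 63 box C/D members, of 0 of 31 H/ACA members and of 0.366% of the windows (first 20 bases). ACA stood 3 bases before the end in 25 of 31 H/ACA members, in 0 of 63 box C/D members and in 1.17% of the windows. Of 9 Cajal body members, 5 had CTGA, 4 had TGATGA and 2 had ACA at these places. Only the sense strand was searched, and these exact letters miss degenerate boxes, as in Snord2, whose sequence shows no TGATGA. The annotated Snora81 does not have ACA at that place.

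The snoRNA classes also differed in length. H/ACA members were 127 to 196 bases long in GENCODE, with a median of 133. Box C/D members had a median of 78.5 bases, and 59 of the 64 were 64 to 111 bases long. The other 5 box C/D members were 126 bases or longer, namely Snord17 (238 bases), Snord15a (148), Snord15b (145), Snord118 (135) and Snord22 (126). The 9 Cajal body RNAs ran from 70 to 414 bases. A split at 120 bases is used from here on, and it was chosen after the values were seen.

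A same-strand host gene was annotated for 98 members, in 74 distinct hosts, and 53 members lay wholly in host introns while 45 overlapped an exon of some host transcript. Hosts that encode ribosomal proteins held 31 members. For the 45, reads of the host and of the snoRNA may be shared, because the handling of overlapping genes is not given in the sources used here.

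Scarna2, a Cajal body RNA with no annotated same-strand host, had the highest length-normalised level, a mean TPM of 8150.2. Scarna10 (host Ncapd2) followed at 2687, Scarna13 (host Snhg10) at 826, Scarna9 (host Cep295) at 346 and Scarna6 (host Atg16l1) at 239. The length behind the deposited TPM equalled the RefSeq length for 98 of 104 members, and that length was 61 bases for Scarna2 and 71 for Scarna10, against 414 and 325 bases in GENCODE. Their TPM therefore rests on short lengths, and their rank by TPM is uncertain. Among the snoRNAs the 4 leading box C/D members by mean TPM were all long: Snord17 (2341), Snord22 (1656, host Snhg1), Snord15b (1551) and Snord15a (916, host Rps3). Snord49a (host 2410006H16Rik), the fifth, followed at 188. The leading H/ACA members were Snora74a (1496), Snora81 (1122), Snora21 (1066), Snora23 (448, host Ipo7) and Snora65 (419.6, host Rpl12). Over members, the median of the mean TPM was 116 in the H/ACA class and 33 in the box C/D class.

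A few members held most of each class. Snord17, Snord15b, Snord22 and Snord15a together gave 85.7% of the mean summed CPM of the 64 box C/D members, and Snord17 alone gave 40.8%. The 4 highest of 31 H/ACA members gave 61.3%, with Snora74a at 25.9%. The 4 highest Cajal body RNAs gave 97.7%, with Scarna2 at 49.8%. The 59 short box C/D members summed to 89.9 ± 23 CPM (SD over 8 libraries), against 571 ± 498 for H/ACA.

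The summed H/ACA level was 259 and 1774 CPM in Vwf+ WT replicates 1 and 2, and 409.7 and 478 in Vwf+ Dnmt3a+/-. It was 432 and 215 in Vwf- WT, and 474 and 524 in Vwf- Dnmt3a+/-. Vwf+ WT replicate 2 thus stood 4.1-fold above the median of the other 7, which spanned 215 to 524. The 5 long box C/D members followed the same order, with 226 and 1589.7 CPM in Vwf+ WT, 382 and 485 in Vwf+ Dnmt3a+/-, 404 and 203 in Vwf- WT, and 431 and 595 in Vwf- Dnmt3a+/-. Here Vwf+ WT replicate 2 was 3.94-fold above the median of the others. The short box C/D members summed to 127 CPM in that library and to 63.3 to 117 in the others, a ratio of 1.59 to their median. Cajal body RNAs summed to 591 CPM there, inside the range of 363 to 668 of the other 7. The ratio of all box C/D to all H/ACA counts stayed between 0.968 and 1.28 in the 8 libraries. The ratio of H/ACA to short box C/D counts was 14 in Vwf+ WT replicate 2 and 3.24 to 7.06 in the other 7. Among those 7, the female Dnmt3a+/- libraries stood highest, at 6.97 (Vwf+) and 7.06 (Vwf-), and the rest at 3.24 to 4.83. The remaining female library, Vwf- WT replicate 2, was at 3.4.

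**Figure D1:**
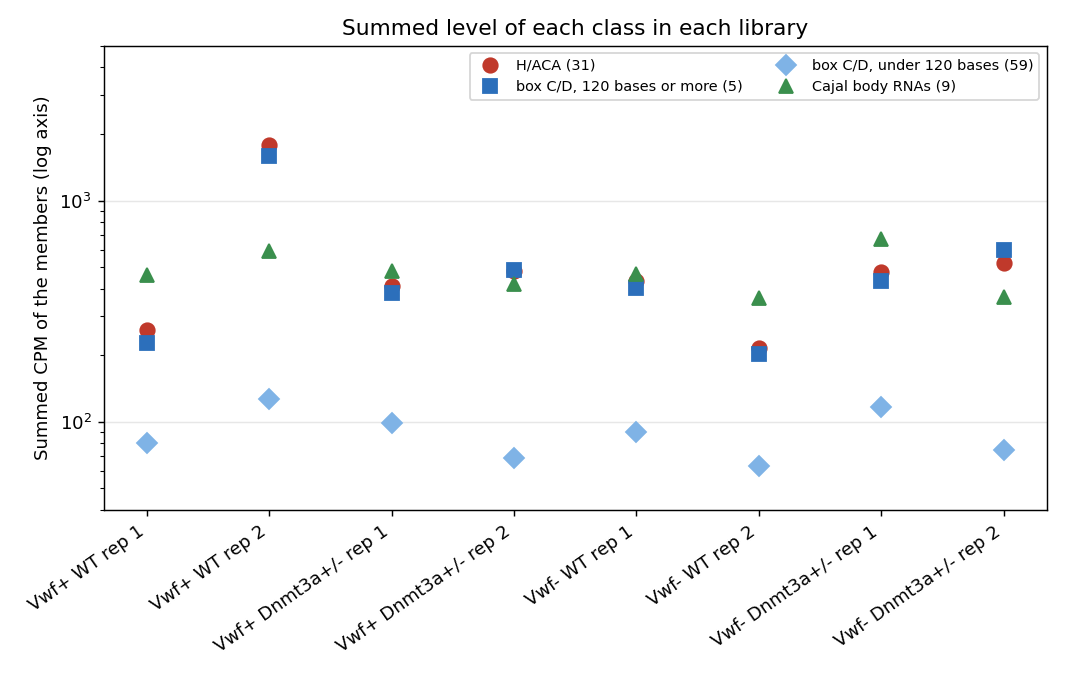
Summed CPM (log axis) of the 31 H/ACA, 5 long box C/D, 59 short box C/D and 9 Cajal body RNAs in each library, 1 point per class and library. H/ACA and long box C/D points lie close together in every library and peak at 1774 and 1589.7 CPM in Vwf+ WT replicate 2 (rep 2), where the short box C/D sum is 127.

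Member by member, 28 of 31 H/ACA RNAs stood in Vwf+ WT replicate 2 at 2-fold or more above the median of the other 7 libraries, with a median ratio of 3.85 and a range of 0.717 to 6.44. The same held for 4 of 5 long and 18 of 53 tested short box C/D members and for 1 of 7 tested Cajal body RNAs. Over all 15917 tested genes, 8.44% reached that ratio in that library, with a median of 0.996. This library was singled out after the values were seen, so the counts are a description and carry no test. In Vwf+ WT replicate 1, the other library of its group, no H/ACA member was 2-fold above the median of the others, and the median ratio was 0.58.

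Snora64, which sits in the ribosomal protein gene Rps2, had the highest ratio among H/ACA members at 6.44. Its level was 7.11 and 74.7 CPM in Vwf+ WT, 10.6 and 22.3 in Vwf+ Dnmt3a+/-, 11.6 and 7.03 in Vwf- WT and 11.8 and 24.1 in Vwf- Dnmt3a+/-. Snora21 showed 24.2 and 237 CPM in Vwf+ WT, 43.9 and 55.1 in Vwf+ Dnmt3a+/-, 45.9 and 20.1 in Vwf- WT and 49.3 and 71.8 in Vwf- Dnmt3a+/-. In both, Vwf+ WT replicate 2 was higher than every other library, and the lowest values were those of Vwf+ WT replicate 1 and Vwf- WT replicate 2. Snord17 gave 105 and 749 CPM in Vwf+ WT, 181 and 217 in Vwf+ Dnmt3a+/-, 203 and 103 in Vwf- WT and 235 and 260.3 in Vwf- Dnmt3a+/-, so in this box C/D RNA of 238 bases the highest library and the 2 lowest were those of the H/ACA pair.

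The 3 H/ACA members that did not follow were Snora31 (ratio 1.03), Snora43 (1.39) and Snora34 (0.717), named here after their values were seen. Snora31 measured 13 and 12.2 CPM in Vwf+ WT, 13.9 and 9.52 in Vwf+ Dnmt3a+/-, 11.8 and 6.21 in Vwf- WT and 17.6 and 6.8 in Vwf- Dnmt3a+/-. Snora34 was low everywhere, from 0 to 0.511 CPM. The long box C/D member that did not follow was Snord118 (U8, which acts in cutting of the large-subunit ribosomal RNA precursor), at 0.925. It had no count in Vwf+ WT replicate 1, where 3 counts, the limit a count of 0 allows for counting error alone, equal 0.135 CPM, and it reached 0.836 CPM at most.

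Among tested box C/D members under 120 bases, most of the longest were high in that library too. Snord23 (109 bases), Snord89 (110), Snord8 (110) and Snord67 (111) had ratios of 5, 4.78, 3.84 and 2.83, whereas Snord43 (108) was at 0.43. Snord90 (111) was too low to test, at 0.388 CPM there and at most 0.181 in the others. The 18 of 53 short members at 2-fold or more also included much shorter ones. Snord11 (84 bases), Snord110 (68) and Snord42a (65) had ratios of 3.65, 2.97 and 3.16, at 1.94, 2.15 and 0.904 CPM in that library. Of the Cajal body RNAs, Scarna8 (131 bases) had a ratio of 3.98, while Scarna6 (265), Scarna13 (275), Scarna10 (325) and Scarna2 (414) lay at 1.93, 1.26, 1.21 and 1.27. Scarna9 (70 bases) and Scarna17 (79) lay at 0.889 and 0.388.

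**Figure D2:**
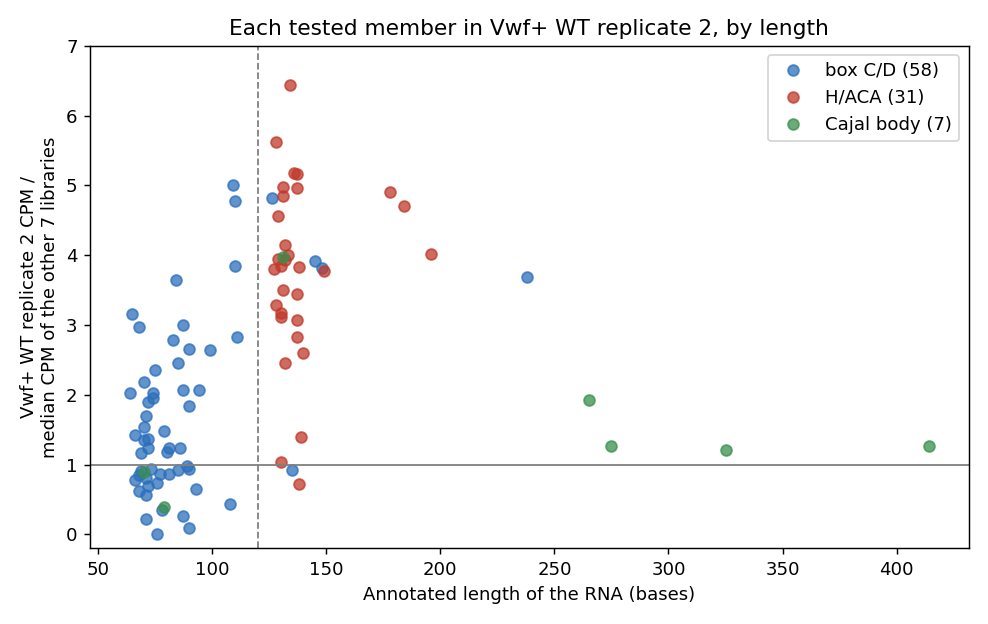
Each point is a tested member, with its annotated length in bases on the horizontal axis and its CPM in Vwf+ WT replicate 2 divided by the median CPM of the other 7 libraries on the vertical axis; the dashed line marks 120 bases and the grey line a ratio of 1. Most members from 110 to 238 bases lie above a ratio of 2, whatever their class, and the 4 Cajal body RNAs longer than that, at 1.21 to 1.93, lie below it.

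Some small RNAs outside the named families were high in the same library. The minor spliceosomal RNA Rnu12 (150 bases by RefSeq) stood at 139 CPM there and at 14.2 to 54.7 in the other 7, and Rnu11 (108 bases by RefSeq) at 40.3 against 6.36 to 17.1. The vault RNA Vaultrc5 (345 bases) stood at 61.6 against 5.73 to 20.4. Rmrp (275 bases), the RNA of the nuclease that also cuts pre-ribosomal RNA, had a ratio of 2.31 to the median of the others, Rpph1 (325 bases) 1.56 and the telomerase RNA Terc (397 bases) 1.48. The ribosomal precursor Rn45s had 1.13 and the nuclear transcript Malat1 0.593. RNA size, input and fragmentation are not labelled per library, and whether duplicate reads were removed before counting is not given in the sources used here. The part of these in the pattern was not tested.

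Hosts did not share the pattern at that size. Of 62 tested hosts, 0 reached 2-fold in Vwf+ WT replicate 2, and their median ratio was 1.09 (range 0.0307 to 1.43). The lowest, Snhg10, had only 0.0431 CPM there. The tested ribosomal protein hosts other than Rpl10 were all highest in that library, at smaller ratios, such as 1.43 for Rpl37 and 1.18 for Rpl32. Of all tested genes, 19% were highest there. In 4 hosts, members of both classes and both lengths share a host gene. In these sets class and length cannot be told apart. Eif4a2 carries Snora81 (178 bases) and Snord2 (69 bases), and its own ratio was 0.895. Snora81 was 38.4 and 314 CPM in Vwf+ WT, 64.1 and 78.2 in Vwf+ Dnmt3a+/-, 58.7 and 29.5 in Vwf- WT and 67.3 and 86.5 in Vwf- Dnmt3a+/-. Snord2 was 5.13 and 5.94 CPM in Vwf+ WT, 8.68 and 4.56 in Vwf+ Dnmt3a+/-, 6.76 and 3.57 in Vwf- WT and 8.05 and 3.38 in Vwf- Dnmt3a+/-. Vwf+ WT replicate 2 was thus far the highest library for Snora81 and an ordinary one for Snord2.

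In the other 3 hosts that carry both sizes, the members of both classes were highest in Vwf+ WT replicate 2, and the ratios differed in size. In Snhg12, a noncoding host with a ratio of 0.734, Snora16a, Snora44 and Snora61 had ratios of 4.97, 4.56 and 3.17, and Snord99 (74 bases) had 2.03. In Rps12, Snora33 had 3.95 and Snord100 had 1.96. In Ncl, the nucleolin gene, Snora75 had 4 and Snord82 had 1.35. Snord82 was highest there only narrowly, at 1.68 CPM against 1.66 in Vwf+ WT replicate 1 and 1.62 in Vwf+ Dnmt3a+/- replicate 1. In each of the 4 hosts the box C/D ratio was the lower, although in Snhg12 it still passed 2. The sets were few and were read after the library had been singled out, so no test was made.

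**Figure D3:**
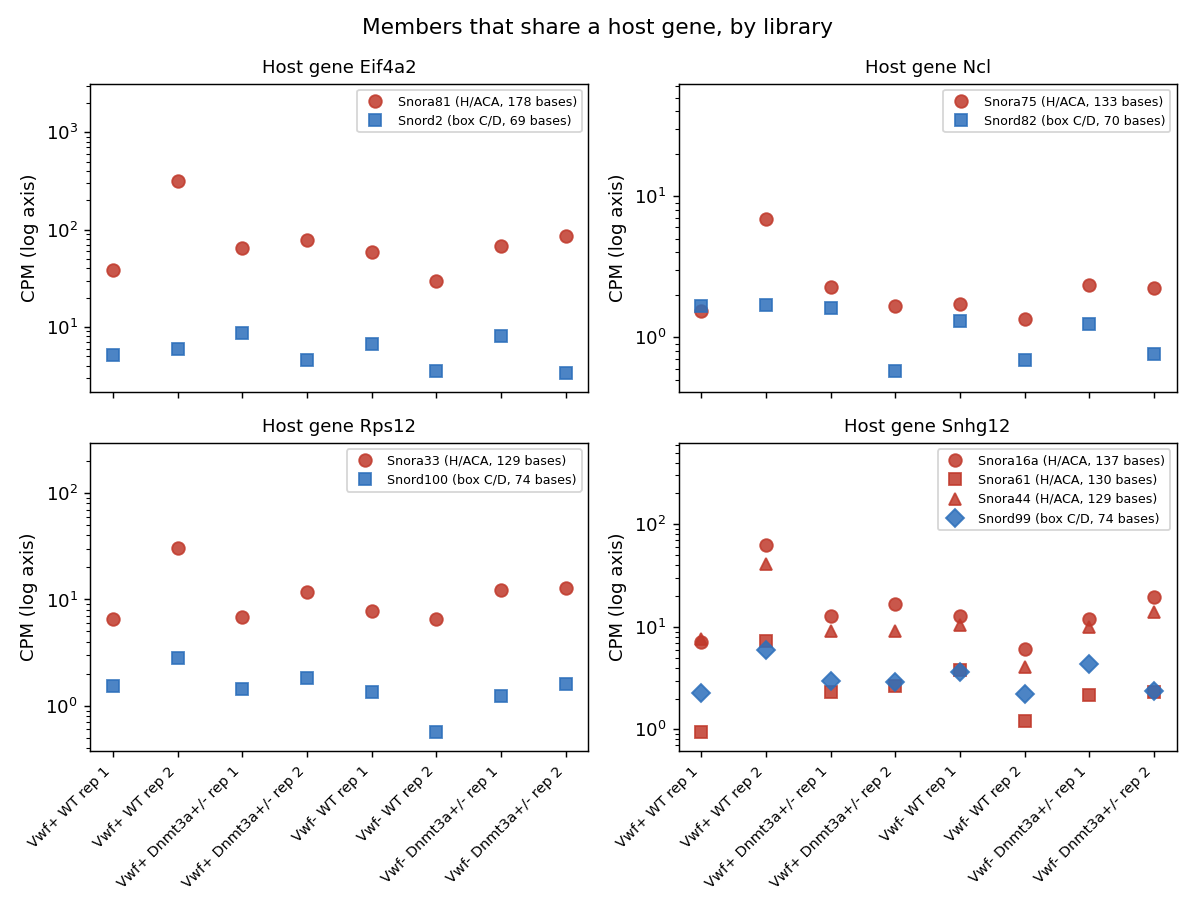
CPM (log axes) of members that share a host gene, in each of the 8 libraries, with H/ACA members in red and box C/D members in blue; rep 1 is male and rep 2 female. In all 4 hosts the H/ACA points peak in Vwf+ WT replicate 2, as Snora81 does at 314 CPM. Snord99 and Snord100 peak there too, at 5.94 and 2.84 CPM, with lower ratios to the other libraries. Snord82 at 1.68 CPM there is nearly level with 1.66 in Vwf+ WT replicate 1, and Snord2 at 5.94 CPM does not peak there.

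Whether Vwf+ and Vwf- stem cells differed in these RNAs was tested over both genotypes with edgeR's quasi-likelihood test and Benjamini-Hochberg adjustment over all tested genes, at a threshold of 0.05. No member of 96 was called, against 5.44% of all tested genes. An unadjusted p under 0.05 was found for 1 member and for 17.2% of genes. DESeq2 called 0 members as well, against 8.91% of genes, with 4 members and 17.9% of genes under 0.05 unadjusted. The median log2 difference was 0.65 for H/ACA, 0.67 for long box C/D, 0.16 for short box C/D and 0.08 for Cajal body RNAs, against -0.01 for all tested genes. Without Vwf+ WT replicate 2 these medians were -0.25, -0.29, -0.10 and -0.27, with 0 of 98 members called against 2.91% of genes. The higher medians in Vwf+ cells thus turned sign when that library was left out.

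The members with the smallest p were led by Snora41 (host Eef1b2), with a log2 difference of 1.25 ± 0.45 (SE, edgeR adjusted p = 0.17). Snora41 lay at 1.8 and 5.77 CPM in Vwf+ WT and 1.53 and 1.48 in Vwf+ Dnmt3a+/-, against 0.708 and 0.721 in Vwf- WT and 1.36 and 1.47 in Vwf- Dnmt3a+/-. All 4 Vwf+ values lay above the 4 Vwf- values, although 1.48 and 1.47, the closest, were nearly equal. Snora30 (host Srcap), Snord89 (Gm15832), Snord83b (Rpl3) and Snora2b (Kansl2) followed, with log2 differences of 0.62 to 1.20 and edgeR adjusted p-values of 0.29 to 0.36. Each of these 5 was highest in Vwf+ WT replicate 2.

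Single libraries decided the calls. When a library is left out, its partner alone stands for the group and is fitted exactly. Without Vwf+ WT replicate 1, that partner is Vwf+ WT replicate 2, so the calls in that fit rest on the library that stood apart. Without Vwf+ WT replicate 1, the low library of its group, 13 of 98 members were called higher in Vwf+ cells against 3.6% of genes, and all 13 were H/ACA or long box C/D RNAs. Without Vwf- Dnmt3a+/- replicate 1, Scarna13 alone was called higher, at 0.49 ± 0.13 (edgeR adjusted p = 0.039), against 8% of genes. With no filter on low counts, 15 of 104 members were called higher against 7.23% of genes, where the standard error for Snora81 was 0.13, compared with 0.48 when the filter was applied. With replicate number as a block and Vwf+ WT replicate 2 left out, a setting added after the data were seen, Scarna10, Snord17 and Snora74a were called lower in Vwf+ cells, against 11.6% of genes. Their log2 differences there were -0.45 ± 0.11, -0.46 ± 0.12 and -0.41 ± 0.13 (edgeR adjusted p = 0.0014, 0.0046 and 0.03).

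Between Dnmt3a+/- and WT cells no member of 96 was called and none had an unadjusted p under 0.05, by edgeR or by DESeq2. Of all tested genes, edgeR called 0% and DESeq2 0.101%, and 3.24% and 3.74% had an unadjusted p under 0.05. The median log2 difference was -0.21 for H/ACA and 0.07 for box C/D (0.01 for all tested genes). With limma on log2(TPM + 1), which changes the tool, the scaling and the averaging together, the H/ACA median was 0.09, so its sign was not stable. Snord111 (host Sf3b3) had the smallest p, with 0.45 and 0.708 CPM in the male WT pools, 0.689 and 0.36 in the female WT pools and 0.702 to 1.27 in Dnmt3a+/- libraries (log2 0.92 ± 0.60, edgeR adjusted p = 1). The genotypes thus overlapped at their edges. Snord42a (host Rpl23a), Snord88a (2410002F23Rik), Scarna9, Snora3 (Rpl27a) and Scarna10 followed at -1.42 ± 1.08, 1.09 ± 0.88, 0.31 ± 0.25, -0.49 ± 0.40 and 0.21 ± 0.18.

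Without Vwf+ WT replicate 2 the genotype medians were 0.64 for H/ACA, 0.89 for long and 0.29 for short box C/D RNAs, against 0.02 for all tested genes. In that fit, with only replicate 1 of Vwf+ WT, 30 of 31 H/ACA members were above 0, compared with 53.9% of all genes. When the replicate block was added to it, after the data were seen, 11 of 98 members were called higher in Dnmt3a+/- cells and 0 lower, against 0.408% of genes called in either direction. They were Snord17, Snord15a, Snord15b, Snord22, Snora15, Snora16a, Snora21, Snora23, Snora74a, Snora81 and Scarna10, with log2 differences from 0.50 ± 0.11 (Scarna10) to 0.99 ± 0.16 (Snora21). Snora81 shows the pattern: the 3 remaining WT libraries lay at 38.4, 58.7 and 29.5 CPM and the 4 Dnmt3a+/- libraries at 64.1 to 86.5, so the genotypes did not overlap, whereas the WT library left out stood at 314. The calls higher in Dnmt3a+/- cells rest on leaving out that library, and they were absent when all 8 were used. That fit holds only replicate 1 of Vwf+ WT and has fewer residual degrees of freedom than the 4 of the main fit.

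**Figure D4:**
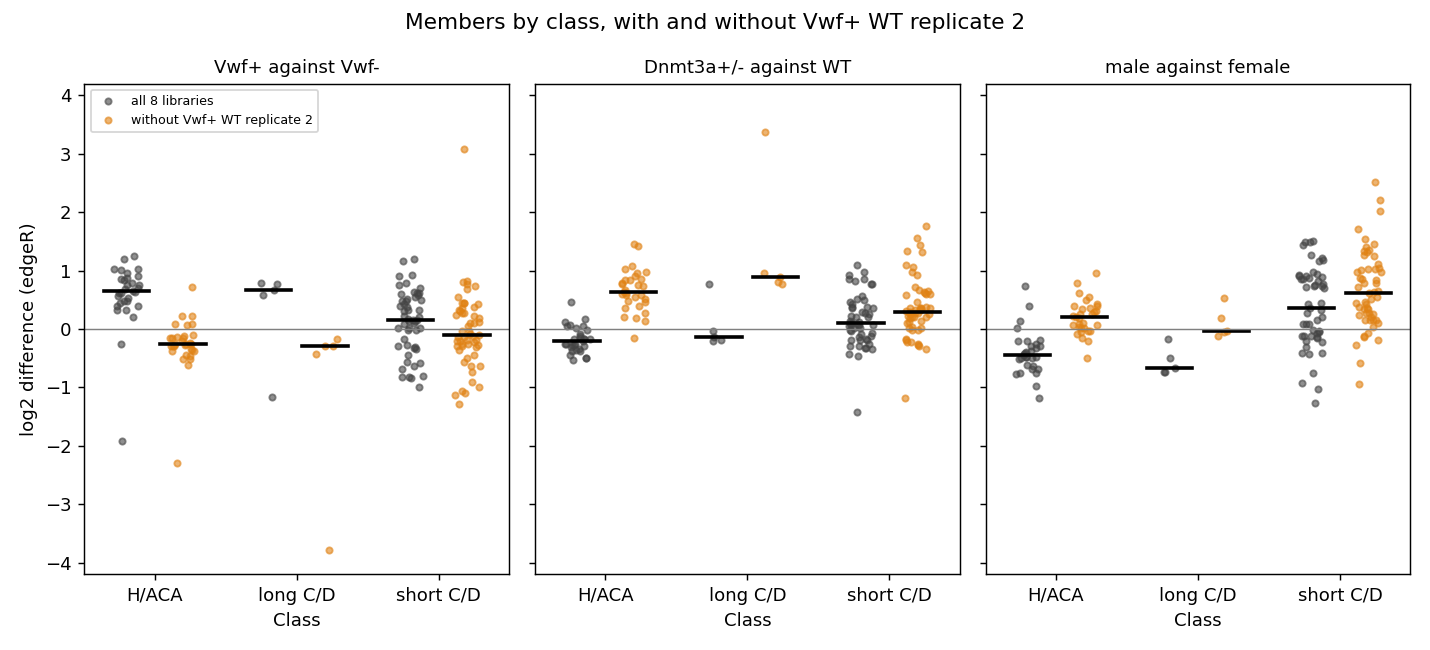
Each point is the log2 difference of a tested member (edgeR) with all 8 libraries (grey) and without Vwf+ WT replicate 2 (orange), for H/ACA, long and short box C/D RNAs, and bars mark medians. For H/ACA the median moves from 0.65 to -0.25 for Vwf status, from -0.21 to 0.64 for genotype and from -0.45 to 0.21 for male against female.

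The interaction asks whether the genotype difference depends on Vwf status. No member of 96 was called (7 with an unadjusted p under 0.05, against 0.999% of genes), and edgeR called 0% of tested genes. DESeq2 also called 0 members, with 10 under 0.05 unadjusted (1.21% of genes), and 0% of genes. The median of the interaction was -1.73 for H/ACA and -0.74 for box C/D with all libraries, and 0.09 and -0.11 without Vwf+ WT replicate 2. Snora5c (host Tbrg4), Snora41 and Snora3 had the smallest p-values, at -2.91 ± 1.12, -2.31 ± 0.90 and -2.01 ± 0.81 (edgeR adjusted p = 1 for each). With no filter on low counts 14 of 104 were called below 0, against 0.105% of genes.

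Male and female pools were compared with the 4 group means in the model. Of 96 members, Snora31 was called higher in males and Snora64 lower, and 10.5% of all tested genes were called. Snora31 lay at 11.8 to 17.6 CPM in the 4 male and 6.21 to 12.2 in the 4 female libraries, a log2 difference of 0.74 ± 0.20 (edgeR adjusted p = 0.02), higher in the male pool of 4 of 4 groups although the ranges overlapped. Its host Tpt1 did not pass (0.12 ± 0.12, edgeR adjusted p = 0.55). Snora64 lay at 7.11 to 11.8 CPM in males and 7.03 to 74.7 in females, a difference of -1.18 ± 0.37 (edgeR adjusted p = 0.046). It was lower in the male pool of 3 of 4 groups, and the difference was -0.49 without Vwf+ WT replicate 2. It was -0.51 without Vwf+ WT replicate 1, and -1.80 or -1.78 without replicate 1 or 2 of Vwf- WT. Leaving out either library of a group takes that group out of the sex difference. The split of calls moved with scaling and tool: 3 higher (Snora31, Scarna2 and Snord96a) and 0 lower with total counts alone (11.5% of genes), and 2 higher (Snora31 and Snord96a) and 0 lower with DESeq2 (13% of genes). Total counts alone moved the median of all tested genes from 0.02 to 0.11. Their calls moved from 783 higher and 894 lower to 1321 higher and 517 lower. With DESeq2 the calls over all genes were 891 higher and 1172 lower, while the member calls were all higher. Why the member split moved was not tested. Rps2, the host of Snora64, was called lower in males too, at -0.35 ± 0.11 (edgeR adjusted p = 0.043).

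The next 4 by p were Snord96a (host Rack1), Scarna2, Snord2 and Snora33, at 0.93 ± 0.31, 0.41 ± 0.14, 0.73 ± 0.27 and -0.69 ± 0.27 (edgeR adjusted p = 0.058, 0.06, 0.085 and 0.12). Snord96a stood at 4.12 to 9 CPM in male and 2.17 to 3.93 in female libraries, and Scarna2 at 226 to 347 and 164 to 286. For Snord96a the sexes did not overlap, whereas for Scarna2 Vwf+ WT replicate 2 was the female library above the lowest males. Eif4a2, the host of Snord2, was called higher in males at 0.54 ± 0.11 (edgeR adjusted p = 0.0028). Class medians went opposite ways, with -0.45 for H/ACA, -0.67 for long and 0.36 for short box C/D RNAs, against 0.02 for all tested genes. Without Vwf+ WT replicate 2 they were 0.21, -0.04 and 0.62.

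The number of members called by sex moved with the group of the library left out. The sex fit has a mean for each group. When a library is left out, its partner is fitted exactly and that group adds nothing to the sex difference. The leave-outs of the same group are therefore not separate evidence. Without Vwf+ WT replicate 2, 8 of 98 were called higher in males and 0 lower (16.9% of genes): Snora31, Snora7a, Scarna2, Scarna6, Scarna13, Snord2, Snord47 and Snord96a. Without Vwf+ WT replicate 1 it was 9 higher and 1 lower (16.7%). Without Vwf+ Dnmt3a+/- replicate 1 or 2 it was 3 higher and 10 lower (6.3%) or 1 higher and 7 lower (5.72%). Without Vwf- WT replicate 1 or 2 it was 3 higher and 18 lower in both cases (8% and 8.59%). Without Vwf- Dnmt3a+/- replicate 1 or 2 it was 0 higher and 2 lower in both (4.41% and 4.17%), namely Snora64 and Snora33, and Snora31 then did not pass, at 0.53 and 0.51. In the male libraries Malat1 was also higher, at 9704 to 18515 CPM against 4619 to 6033 in female ones, and the part of nuclear RNA content in these values was not tested.

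Transcripts of the genes for proteins that bind the 2 classes did not follow the snoRNAs in Vwf+ WT replicate 2. Protein was not measured. The box C/D core genes Fbl, Nop56, Nop58 and Nhp2l1 (the older symbol of Snu13) had ratios of 1.14, 1.02, 0.995 and 1.08 there, and the H/ACA core genes Dkc1, Gar1, Nhp2 and Nop10 had 1.07, 1.18, 1.33 and 1.11. None of these 8 was called for Vwf status, genotype or their interaction by edgeR. Over all tested genes edgeR called 5.44% for Vwf status, 0% for genotype and 0% for the interaction. It called 10.5% between sexes, with 894 of 15917 genes lower in males. Between sexes, the methyltransferase Fbl was lower in males at -0.45 ± 0.10 and Gar1 at -0.40 ± 0.12 (edgeR adjusted p = 0.0068 and 0.035). Of 18 assembly and Cajal body genes, 0 were called for Vwf status, genotype or interaction and 3 were called lower in males, namely the nucleolar genes Ncl (-0.59 ± 0.12) and Nolc1 (-0.45 ± 0.11) and the assembly helicase Ruvbl2 (-0.33 ± 0.10). Coilin (Coil), the scaffold of Cajal bodies, did not pass for sex (0.04 ± 0.12).

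Some well-known snoRNAs could be followed only in part. Of 5 symbols on the list of snoRNAs that act in cutting of ribosomal precursors or belong to that group, Snord22 and Snord118 were members, and the 3 Snord14 copies had no count. Of 4 symbols in the imprinted Prader-Willi region, 3 Snord116 symbols had no count and Snord64 reached 0.395 CPM at most, too low to test. All 4 snoRNAs of Rpl13a were members: Snord32a, Snord34 and Snord35a were tested and none was called in the 4 comparisons. Over all tested genes, 5.44% were called for Vwf status, 0% for genotype, 0% for the interaction and 10.5% for sex. The ratios of Snord32a, Snord34 and Snord35a in Vwf+ WT replicate 2 were 2.79, 1.54 and 0.939. Snord33 was too low to test. Of the Gas5 set, Snord47 was the symbol in the table, at 1.3 to 4.37 CPM, with a sex difference of 0.82 ± 0.34 that did not pass (edgeR adjusted p = 0.13).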

How the data were processed

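RNA was sequenced in 8 libraries. Tools listed in the submitters' processing notes are STAR, Trim Galore, featureCounts and DESeq2, with mm10 as build; versions, annotation, strand setting and treatment of reads with several matches are not given in the sources used here. The deposited count table holds whole numbers per gene symbol, and the deposited TPM table holds values by the authors that sum to 1000000 per library. Short RNAs and near-identical copies may be under-counted by such a workflow; this was not tested.

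Counts were fitted with edgeR 4.0.16 in R 4.3.3 (filterByExpr minimum 10, TMM factors 0.958 to 1.06, quasi-likelihood F-test, 4 group means, 4 residual degrees of freedom) over 15917 genes, after the script was tested on simulated data. SE is the log2 difference divided by the square root of F. Each p measures the spread between pools, which within a group is also male against female. Alternatives used DESeq2 1.42.0 and limma 3.58.1. Members and gene lists were chosen with earlier results of these data known. Members were named by rule: the 5 highest by TPM per class, the smallest p per comparison (6, or 3 for the interaction), those beside the count minimum, fixed lists, and their hosts. A member that the rule names for Vwf status is not reported here.

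Replicate numbers pair libraries, since the labels give each number 1 sex; replicate differences correlated between groups over genes at r = 0.13, 0.2, 0.23, 0.16, 0.3 and 0.24 for the 6 pairs of groups. All columns of both tables were used.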

Additional observations from a re-analysis of the deposited data

How the results depend on the processing

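With 2 pools per group and sex shared within every pair, single pools weigh heavily. The replicate block alone called 0 members for Vwf status, genotype or interaction, as without it. Over all 15917 tested genes it called 1181 higher and 951 lower for Vwf status, against 599 and 267 without it. For genotype it called 16 higher and 14 lower, against 0 without it, and for the interaction 0. For Vwf status the members called were 0 with DESeq2, with other scalings, with a minimum count of 30 and on log2(TPM + 1), and 15 with no filter. DESeq2 called 8.91% of all genes there and the fit with no filter 7.23%. On log2(TPM + 1), 401 genes were called higher and 162 lower. Leaving out a library gave 0 to 13, and the added replicate block without Vwf+ WT replicate 2 gave 3. For genotype that added block gave 11, and the other settings 0. For the interaction no filter gave 14 and the other settings 0. Between sexes the count of 2 (10.5% of all genes called) became 17 with no filter (5 higher, 12 lower, 9.19% of genes), 1 with a minimum of 30 (12.1%) and 7 with limma on log2(TPM + 1) (7 higher, 1.8%), and 2 to 21 when a library was left out. The cause was not tested.

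Of 320 values of named members under alternatives, 282 kept their direction and side of the threshold, 28 newly passed it, 7 no longer passed it and 3 turned sign: Snora30 for Vwf status to -0.01 with the added block, and Snora3 for genotype to 0.20 with the added block and to 0.19 without Vwf+ WT replicate 2 (leaving out a library gave -0.84 to 0.19). The added block was chosen after seeing the data. The mean summed CPM of Cajal body RNAs, 477, was 239 without Scarna2. The interaction's median over all genes was 0.15 on log2(TPM + 1), against -0.00 in edgeR. Depth limits the lowest members: 3 counts equalled 0.0761 to 0.138 CPM per library.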
